A study of Mus musculus with 16 samples.

Results

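Mouse mammary organoids carrying a HER2 mutation were compared with WT organoids, gene by gene, by RNA sequencing. The comparison used all 4 HER2 mutant and all 3 WT samples of a series of 16, chosen by the genotype in their labels, and the other 9 samples were 4 PIK3CA mutant and 5 double mutant organoids. Organoids are self-organised cultures that keep much of the architecture of their tissue. All 16 shared a serum-free medium with B27, N-acetyl-cysteine, murine EGF and conditioned medium holding Rspo1 and Noggin. WT organoids came from normal breast and HER2 mutant organoids from breast tumor, so genotype and tissue source cannot be told apart in this comparison. The series title names V777L as the HER2 change and H1047R as the PIK3CA change, and places both in the p21, CDK4/6 and cyclin D1 axis. The labels do not say how the HER2 mutation was introduced, which promoter or Cre drove it, the age of the mice, or whether each sample came from its own mouse. P-values therefore measure only the spread between these samples, which may be technical.

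HER2 is the receptor tyrosine kinase that the mouse gene Erbb2 encodes, a member of the ErbB family. It has no known ligand of its own and signals in pairs with EGFR, ERBB3 or ERBB4, mainly through the RAS-ERK and PI3K-AKT pathways. The mammary gland is a bilayer of luminal cells, which include the milk-secreting lineage driven by prolactin, Stat5 and Elf5, and contractile basal or myoepithelial cells. In bulk RNA, fewer cells of a type and less RNA per cell cannot be told apart, which touches every marker result.

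Total counts were 48010713 to 57800959 per WT sample and 45545182 to 52938963 per HER2 mutant sample. Levels are given as CPM, counts scaled to the size of each library with TMM factors, and values are listed in replicate order, WT 1 to 3 and HER2 1 to 4. At these depths 3 counts correspond to 0.05 to 0.0667 CPM. The general epithelial marker Epcam was at 489, 511 and 479 CPM in WT and 492, 567, 608 and 606 CPM in HER2 mutants, so all 7 samples carried epithelial RNA. Macrophage RNA was present as well: the summed CPM of 19 macrophage and myeloid markers was 2543, 919 and 5302 in WT and 385, 155, 58.1 and 33.1 in HER2 mutants. Fibroblast marker sums were 938, 2951 and 2108 CPM in WT and 47.2, 459, 388 and 794 CPM in HER2 mutants. Erythroid Hba-a1, Hbb-bs and Hbb-bt held at most 1 count in any of the 7 samples, and lymphocyte Cd3d and Ms4a1 held at most 2.

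Of 24252 genes tested with edgeR's quasi-likelihood test in a fit of all 16 samples, 2518 (10.4%) had an adjusted p under 0.05 between HER2 mutant and WT organoids. Of these, 1153 were higher (4.75%) and 1365 lower (5.63%) in HER2 mutants. The groups did not overlap for 5387 genes (22.2%), 2378 of them higher (9.81%) and 3009 lower (12.4%), and 2286 genes both passed and did not overlap. A fit of only these 7 samples, which takes its spread from them alone, called 541 of 22823 genes (2.37%), 219 higher (0.96%) and 322 lower (1.41%). Of those 541 genes, 524 were among the 2518. Leaving out WT 3 lowered the shared-fit count to 733 and leaving out WT 1 lowered it to 1154. When GC content and transcript length entered as an offset, 1821 of 2916 called genes were higher, against 1153 of 2518 without it, and the median log2 fold change of all genes moved from 0.03 to 0.12. The plot of all tested genes shows both tails. Each p in what follows is from the fit of all 16 samples unless the 7-sample fit is named, and a lost call had an adjusted p of 0.05 or more in the fit named. Counts of higher and lower genes are of those that passed. Each list count is to be set beside the shares over all tested genes, 4.75% higher and 5.63% lower. No set test was run, so a list with few calls is not told apart from those shares. Of 744 entries in 49 gene lists, 716 were tested, and 28 had too few counts for the test. For 160 genes named by rule, 11 other settings were run besides the fits that each left out 1 sample, among them other scalings, DESeq2, limma voom, the 7 samples alone, the fit without HER2 1 and 4 and the removal of chromosome medians, the last of which are described next. Of these 160 genes 105 passed, 61 of those in every fit that left out 1 sample and 38 in every other setting. None of the 105 changed direction. Apart from a fixed set, they were chosen from these data for passing and for groups that did not overlap, so a reversal was unlikely beforehand.

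**Figure D1:**
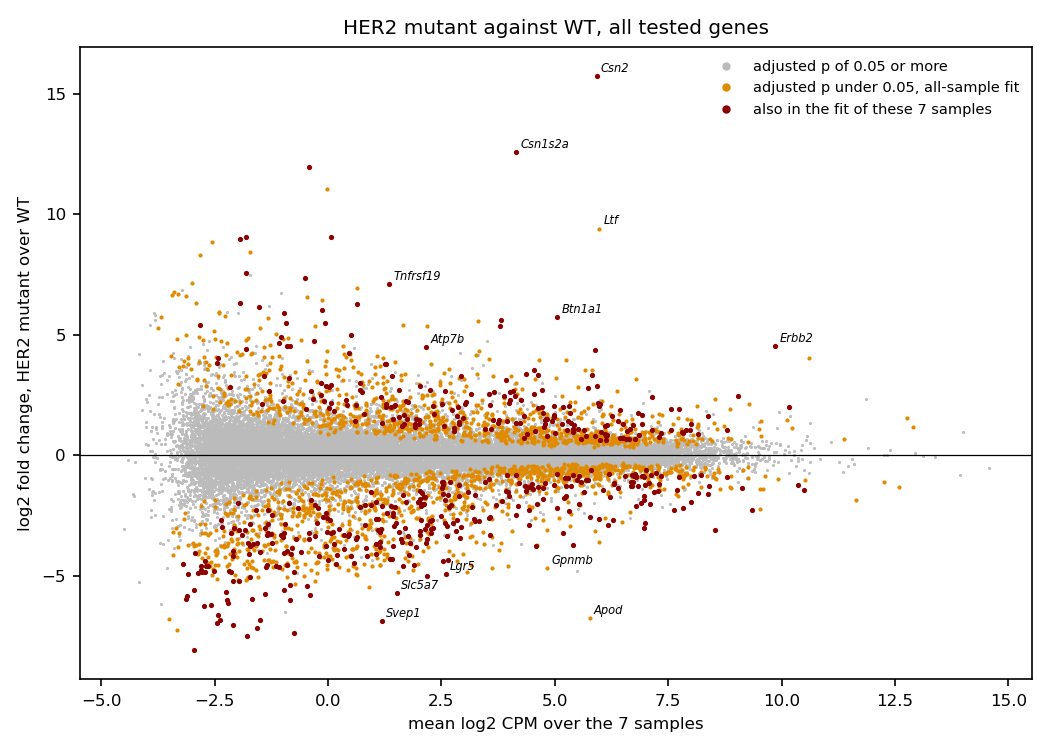
Mean log2 CPM over the 7 samples (x axis) against the log2 fold change of HER2 mutant over WT (y axis), with 1 point per tested gene. Grey points had an adjusted p of 0.05 or more, orange points passed in the fit of all 16 samples, and dark red points also passed in the fit of the 7 samples. Csn2 lies highest among the genes with a mean log2 CPM of at least 1, and Svep1 lowest.

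The 4 HER2 mutant samples differed more among themselves than the WT samples did. Pairs of WT samples had a Pearson r of 0.973 to 0.979 across genes on the log2 CPM scale, and pairs of HER2 mutant samples 0.925 (HER2 1 and 2) to 0.959 (HER2 2 and 3). Genes, over which these correlations run, do not replicate a sample. HER2 1 had 1786 genes at least 2-fold above the highest WT sample and 2675 at least 2-fold below the lowest. The numbers were 1552 and 1680 in HER2 2, 1587 and 2389 in HER2 3, and 1314 and 2071 in HER2 4. All 4 HER2 mutants shared 175 of the genes above and 492 of the genes below. A further 2175 genes were above in 1 sample only, of which HER2 1 held 822, and 2761 were below in 1 sample only, of which HER2 1 held 1041.

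Whole chromosomes stood apart in HER2 1 and HER2 4. For each sample and chromosome, the median over genes of the log2 difference from the WT mean was taken. In WT samples this median stayed between -0.03 and 0.02, in PIK3CA mutants between -0.05 and 0.11, and in double mutants between -0.13 and 0.19. In HER2 1, 18 of 20 chromosomes lay beyond 0.2 in either direction. Chromosomes 1, 2, 6, 7, 12, 15, 19 and X were at 0.25 to 0.54, with X the highest, and most others were at -0.22 to -0.35. On chromosome 11 of HER2 1, each 10 Mb bin up to 90 Mb lay between -0.29 and -0.15, and each bin from 90 Mb on lay between 0.51 and 0.87. Erbb2 lies in the second stretch, at 98412470 to 98437716 on chromosome 11 of GRCm38. In HER2 4, chromosome 4 was at -0.68, with 85.4% of its 717 genes below all WT samples, and chromosome 6 was at 0.40, with 68% of its 584 genes above all WT samples. No chromosome of HER2 2 or HER2 3 lay beyond 0.2. Chromosome 15 of HER2 3 was at 0.14, outside the WT range, with each 10 Mb bin from 60 Mb on between 0.14 and 0.46. DNA was not measured, and what moved these medians was not tested. Because HER2 1 and HER2 4 stood apart, counts are also given without both, an alternative chosen after the data had been seen. Without both, 2477 genes passed, of which 1558 were among the 2518. With the chromosome medians removed from every sample, 2432 passed.

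**Figure D2:**
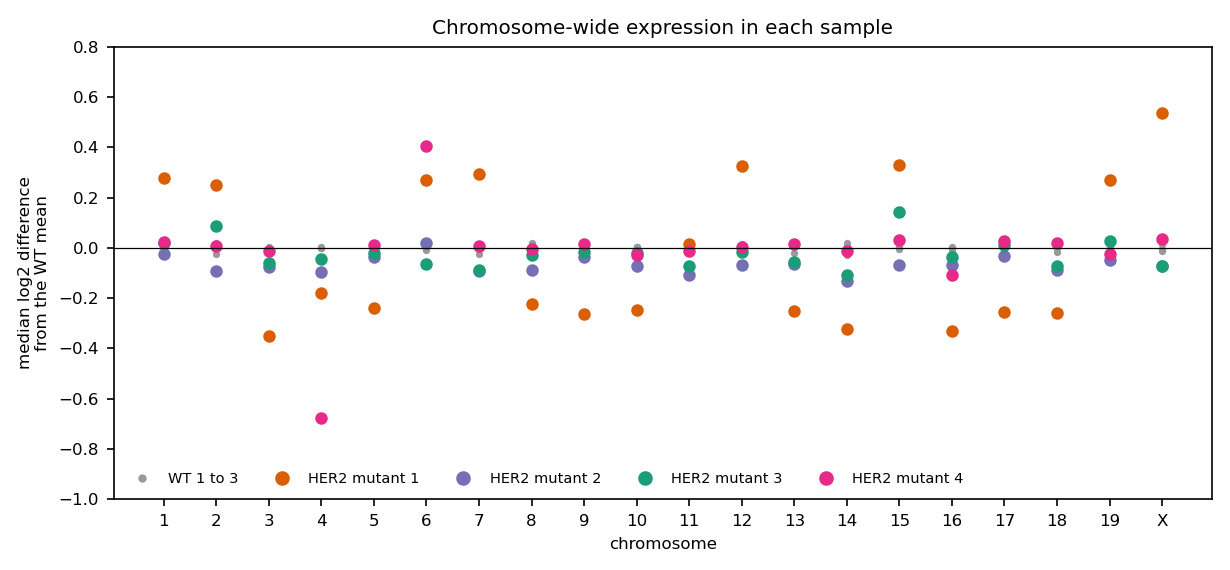
Median log2 difference from the WT mean (y axis) for the genes of each chromosome (x axis), with 1 point per sample, WT in grey and HER2 mutants in colour. HER2 1 lies away from 0 on nearly every chromosome, HER2 4 on chromosomes 4 (-0.68) and 6 (0.40), and HER2 2 and 3 stay within 0.2 of 0.

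ErbB receptors and their ligands and adaptors come first, since the mutated gene is a receptor. Erbb2 rose and its 3 partner receptors were lower. Erbb2 (ENSMUSG00000062312) was at 153, 171 and 145 CPM in WT and 3385, 2696, 4632 and 3686 CPM in HER2 mutants. Every HER2 mutant sample was far above every WT sample, HER2 3 the highest and HER2 2 the lowest (log2 change 4.53 with SE 0.29, edgeR adjusted p = 1.17e-06, and 0.00497 with the 7 samples alone). The end of Erbb2 overlaps Mien1 on the other strand, and the log2 change of Mien1 was 0.09 (edgeR adjusted p = 0.809). Of 17 other tested genes within 150 kb of Erbb2, the low-level Ikzf3 and Neurod2 were higher, and Grb7, an adaptor that binds HER2, was lower without passing (log2 fold change -0.52, edgeR adjusted p = 0.0532). Egfr, the receptor for EGF, was at 184, 187 and 155 CPM in WT and 135, 99.8, 124 and 112 CPM in HER2 mutants. HER2 1, the mutant nearest to WT, was still below it (log2 change -0.57 with SE 0.13, edgeR adjusted p = 0.013). Erbb3, a kinase-impaired partner of HER2, was at 301, 247 and 317 CPM in WT and 169, 244, 196 and 217 CPM in HER2 mutants (log2 change -0.48 with SE 0.14, edgeR adjusted p = 0.0355). HER2 2 lay just below the lowest WT sample. Erbb4, which promotes lactation, was at 26.3, 4.9 and 24.2 CPM in WT and 0.207, 2.64, 0.0223 and 1.74 CPM in HER2 mutants (log2 change -4.0 with SE 0.99, edgeR adjusted p = 0.0194). WT 2 was well under the other WT samples, and HER2 1 and 3 were near 0. The receptor decreases were less firm than the rise of Erbb2: the Egfr call was lost without WT 1 or WT 2 (adjusted p up to 0.0608) and under 3 of 11 other settings, the Erbb3 call was lost without WT 1, WT 3, HER2 1 or HER2 3 (adjusted p up to 0.179), without HER2 1 and 4 together (0.108), with the chromosome medians removed (0.054) and under 8 of 11 other settings, and the Erbb4 call was lost without WT 1 or WT 3 (adjusted p up to 0.0718), without HER2 1 and 4 together (0.0635) and under 3 of 11 other settings.

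Of 10 tested ligands, 1 was higher and 1 lower. Areg, the EGFR ligand amphiregulin that acts in duct growth, was at 1.29, 1.28 and 1.63 CPM in WT and 3.21, 6.61, 10.9 and 5.94 CPM in HER2 mutants. All HER2 mutants were above all WT samples, HER2 3 the most (log2 change 2.24 with SE 0.45, edgeR adjusted p = 0.00613, and 0.043 with the 7 samples alone). Nrg4, a ligand of ERBB4, was at 16, 10.3 and 14.9 CPM in WT and 2.77, 6.57, 6.36 and 3.58 CPM in HER2 mutants. Nrg4 did not overlap between the groups, and HER2 2 came nearest to WT (log2 change -1.51 with SE 0.27, edgeR adjusted p = 0.00351, and 0.0682 with the 7 samples alone). Tgfa, another EGFR ligand, overlapped between groups, with 22.4, 30.7 and 20.6 CPM in WT and 72.2, 36.7, 39.8 and 18.5 CPM in HER2 mutants (edgeR adjusted p = 0.145). Of 9 adaptors and feedback inhibitors, 4 were lower and none higher, with a list median log2 fold change of -0.52. Gab1, the docking protein that links receptors to PI3K and SHP2, was at 183, 146 and 147 CPM in WT and 71.4, 95.4, 77.9 and 92.9 CPM in HER2 mutants (log2 change -0.91 with SE 0.12, edgeR adjusted p = 0.000735). Lrig3, of a family of receptor-regulating membrane proteins, was at 46.8, 43.7 and 41 CPM in WT and 17.4, 25.6, 19.1 and 17.3 CPM in HER2 mutants (log2 change -1.14 with SE 0.18, edgeR adjusted p = 0.00159). Every mutant was below every WT sample in both, and both calls were kept in all 7 leave-one-out fits and in the 7-sample fit. The others were Lrig1 (-0.67, edgeR adjusted p = 0.0139) and the adaptor Shc1 (-0.79, edgeR adjusted p = 0.00349). The Lrig1 call was lost without WT 1 or WT 3 (adjusted p up to 0.0876) and without HER2 1 and 4 together (0.0735). Errfi1, an inhibitor of EGFR and HER2 kinases, spread from low to high within the HER2 mutants, at 253, 764, 1046 and 369 CPM, around 738, 653 and 909 CPM in WT (edgeR adjusted p = 0.664).

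Downstream of the receptor, 2 of 16 ERK target and feedback genes were higher, beside 4.75% of all tested genes. They were the phosphatases Dusp4 and Dusp5, which switch off ERK. Dusp4 was at 92.3, 85.4 and 72.3 CPM in WT and 126, 150.4, 144 and 174 CPM in HER2 mutants. In Dusp4 every mutant was above every WT sample, with HER2 4 the highest (log2 change 0.84 with SE 0.15, edgeR adjusted p = 0.00411). Dusp5 was at 25.2, 23.5 and 16.6 CPM in WT and 41.8, 52.3, 93.2 and 132 CPM in HER2 mutants, highest in HER2 4 (log2 change 1.87 with SE 0.43, edgeR adjusted p = 0.0128). The Dusp5 call was lost without WT 3 (adjusted p up to 0.0801) and under 1 of 11 other settings. The early gene Egr1 overlapped between groups, at 549.8, 869 and 546 CPM in WT and 742, 1146, 885 and 1129 CPM in HER2 mutants. Of 12 AP-1 and early response genes, Myc alone was higher, beside 4.75% of all tested genes. This growth-promoting transcription factor was at 41, 86.8 and 63.4 CPM in WT and 214, 197, 184 and 219 CPM in HER2 mutants, a narrow range above every WT sample (log2 change 1.67 with SE 0.32, edgeR adjusted p = 0.00504, and 0.0279 with the 7 samples alone). Of 19 genes of the PI3K, AKT and insulin pathway, 2 were higher and 2 lower. Foxo3, a factor that AKT keeps out of the nucleus, was at 202, 198 and 206 CPM in WT and 316, 395, 435 and 364 CPM in HER2 mutants. For Foxo3 all mutants lay above all WT samples, HER2 3 the farthest (log2 change 0.90 with SE 0.19, edgeR adjusted p = 0.00797). The regulatory subunit Pik3r3 was at 7.17, 6.96 and 5.61 CPM in WT and 125, 11.9, 30.7 and 41.3 CPM in HER2 mutants, by far the highest in HER2 1 (log2 change 2.99 with SE 0.67, edgeR adjusted p = 0.0113). The Pik3r3 call was lost without WT 3 (adjusted p up to 0.0693), without HER2 1 and 4 together (0.0539) and under 2 of 11 other settings. Pik3cd, a catalytic subunit found mainly in leukocytes, was lower (log2 change -2.06 with SE 0.45, edgeR adjusted p = 0.0102). The Pik3cd call was lost without WT 3 (adjusted p up to 0.0911) and under 1 of 11 other settings. It moved with the macrophage markers, whose part in it was not tested. Pdpk1, the kinase that activates AKT, was lower by little (-0.32, edgeR adjusted p = 0.0368). The Pdpk1 call was lost without WT 1, WT 2, WT 3, HER2 1 or HER2 2 (adjusted p up to 0.131), without HER2 1 and 4 together (0.0671), with the chromosome medians removed (0.0525) and under 8 of 11 other settings. Pik3ca itself was at 85.7, 75.9 and 82.3 CPM in WT and 61.4, 67.4, 74.1 and 65 CPM in HER2 mutants, a difference that did not pass (log2 change -0.28 with SE 0.11, edgeR adjusted p = 0.105).

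**Figure D3:**
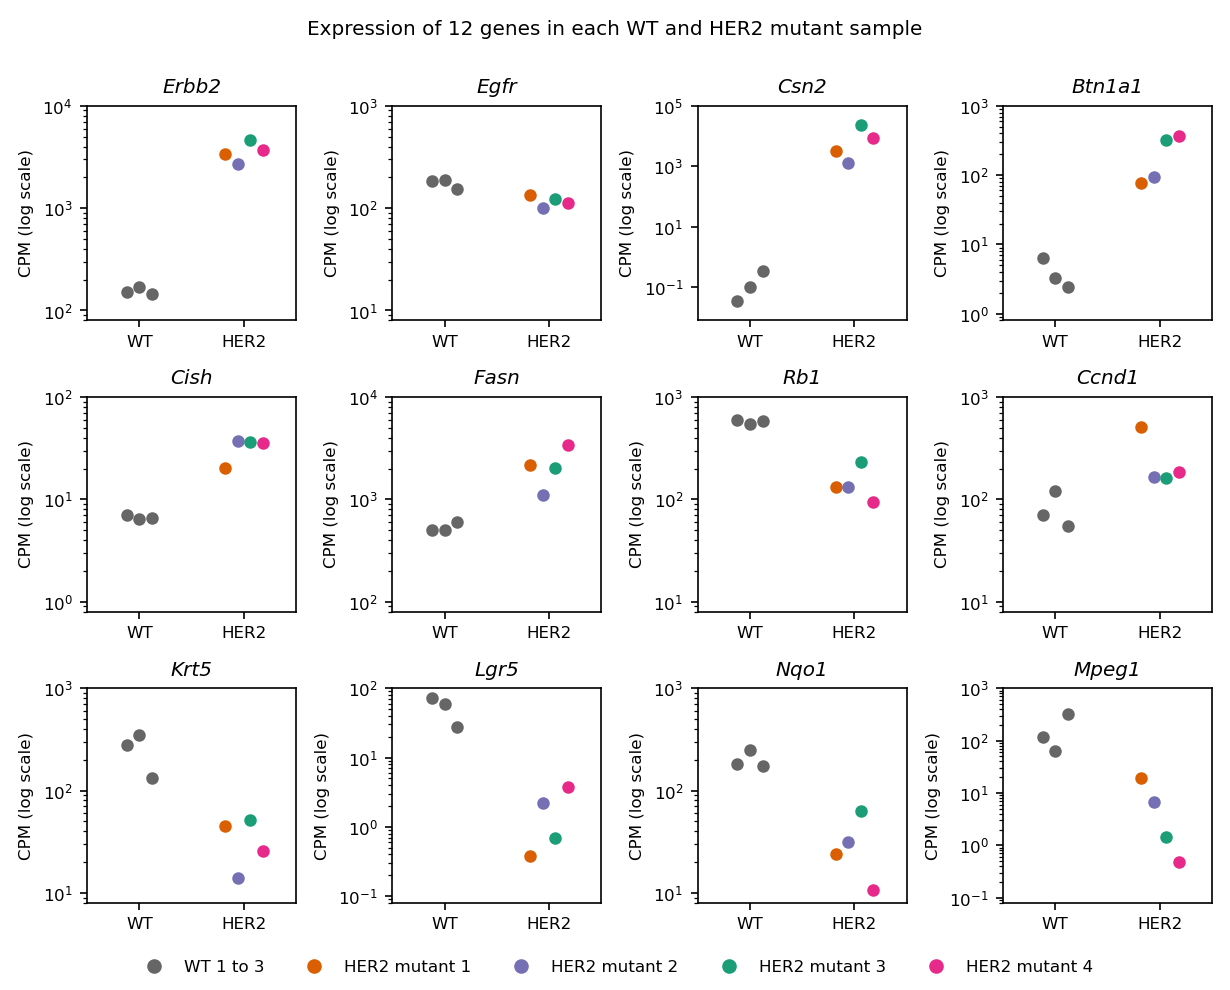
CPM on a log axis (y axis) of 12 genes in each WT sample (grey) and each HER2 mutant sample (coloured by replicate). Erbb2, Csn2, Btn1a1, Cish and Fasn lie higher in all HER2 mutants than in all WT samples, and Rb1, Krt5, Lgr5, Nqo1 and Mpeg1 lie lower. Ccnd1 is set apart by HER2 1.

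Milk protein genes were the list with the highest median log2 fold change, 4.04 against 0.03 for all genes. Of 13 members, 9 were higher and 1 lower. The summed CPM of the 13 was 24700, 35393 and 24407 in WT and 62327, 26387, 90709 and 63432 in HER2 mutants. By that sum HER2 2 lay within the WT range. The count of 9 became 6 to 10 when 1 sample was left out (6 without WT 1, 6 without WT 3 and 6 without HER2 3), 8 without HER2 1 and 4, and 2 in the 7-sample fit. Csn2, which encodes beta-casein, had 2, 5 and 20 reads in WT 1 to 3. In HER2 mutants it was at 3092, 1304, 22709 and 8745 CPM, a spread of more than 10-fold among themselves and far above WT (log2 change 15.76 with SE 1.66, edgeR adjusted p = 0.000201). Csn1s2a, an alpha-casein gene, was at 0.0699, 0.1 and 0.367 CPM in WT and 237, 107, 3128 and 1122 CPM in HER2 mutants, in the same order of samples as Csn2 (log2 change 12.60 with SE 1.60, edgeR adjusted p = 0.000494). Both passed with the 7 samples alone (0.0143 and 0.0258). Ltf, the iron-binding milk protein lactoferrin, was at 3.44, 4.64 and 2.3 CPM in WT and 89.1, 7383, 1873 and 86 CPM in HER2 mutants. Its order differed from that of the caseins, with HER2 2 the highest and HER2 1 and 4 the lowest (log2 change 9.41 with SE 1.72, edgeR adjusted p = 0.00386, and 0.0579 with the 7 samples alone). Further higher members, chosen for mention after their values were seen, were Csn1s1, at 189, 547 and 458 CPM in WT and 3588, 1292, 13149 and 8156 CPM in HER2 mutants (4.04, edgeR adjusted p = 0.00451), and Glycam1, which had 2 reads in all WT samples together and was at 1.36, 6.53, 104 and 8.76 CPM in HER2 mutants. Wap, the whey acidic protein gene, was at 0.122, 0.28 and 0.05 CPM in WT and 0.207, 0.752, 15.9 and 1 CPM in HER2 mutants. The Wap call was lost without WT 1, WT 2, WT 3 or HER2 3 (adjusted p up to 0.24). The lower member was Spp1, which encodes the milk and bone protein osteopontin, at 10233, 6211 and 6664 CPM in WT and 646, 1292, 4203 and 2375 CPM in HER2 mutants. Spp1 stayed outside the WT range in every mutant, with HER2 3 nearest to it (log2 change -1.86 with SE 0.44, edgeR adjusted p = 0.0154). The Spp1 call was lost without WT 1 (adjusted p up to 0.0715) and under 1 of 11 other settings. Trf, milk transferrin, overlapped between groups, at 8471, 19818 and 8994 CPM in WT and 34565, 9509, 27739 and 24541 CPM in HER2 mutants (edgeR adjusted p = 0.127).

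Promoter windows of 3 genes that rose in all HER2 mutants are shown, because each holds the palindrome TTCNNNGAA that STAT5 proteins bind. The windows run from 250 bases before to 50 bases after the annotated start, from RefSeq on GRCm38.p6, with matches in capitals. That of Csn2 is chr5:87699376-87699675 on the minus strand, that of Csn1s2a is chr5:87774200-87774499 on the plus strand, and that of Cish, a target of Stat5 described next, is chr9:107296409-107296708 on the plus strand.
Csn2: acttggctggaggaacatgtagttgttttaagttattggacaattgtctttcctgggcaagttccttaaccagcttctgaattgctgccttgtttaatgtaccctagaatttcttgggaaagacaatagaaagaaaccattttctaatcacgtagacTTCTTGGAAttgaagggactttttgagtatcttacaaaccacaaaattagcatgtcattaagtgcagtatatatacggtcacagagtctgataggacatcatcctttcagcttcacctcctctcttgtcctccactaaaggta
Csn1s2a: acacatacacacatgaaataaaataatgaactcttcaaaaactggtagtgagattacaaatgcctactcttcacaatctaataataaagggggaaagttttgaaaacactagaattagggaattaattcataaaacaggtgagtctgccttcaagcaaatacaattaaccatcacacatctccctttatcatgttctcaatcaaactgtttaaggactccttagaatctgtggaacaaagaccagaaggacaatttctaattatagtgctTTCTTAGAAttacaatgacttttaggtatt
Cish: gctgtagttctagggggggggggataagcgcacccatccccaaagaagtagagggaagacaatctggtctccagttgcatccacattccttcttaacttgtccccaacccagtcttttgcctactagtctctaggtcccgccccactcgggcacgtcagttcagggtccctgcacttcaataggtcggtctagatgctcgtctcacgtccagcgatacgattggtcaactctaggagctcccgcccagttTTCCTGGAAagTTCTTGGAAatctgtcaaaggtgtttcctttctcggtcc
The motif reads the same on both strands. The match in Csn2 begins 93 bases before the start, that in Csn1s2a lies after its start, and Cish holds 2 matches at and just after its start. Of all 32851 windows of this length, 8.3% hold the motif, and of 27025 genes with a window, 9.55% do. It is present in 4 of the 10 milk protein genes with a window (of 13 in the list), 0 of 11 milk fat genes (of 19) and 3 of 8 genes of the prolactin and Stat5 list (of 9). Ltf and Wap, which were also higher, hold no match, and Prlr and Socs3, which hold 1 each, did not pass. A match is a description of the sequence, and binding was not measured.

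Of the 9 genes of the prolactin and Stat5 list, 2 were higher and 1 lower, and the median log2 fold change was 0.04. Cish, a feedback inhibitor induced by Stat5, was at 7.01, 6.42 and 6.59 CPM in WT and 20.3, 37.2, 36.5 and 35.7 CPM in HER2 mutants. HER2 1 was the lowest of the mutants and still above all WT samples (log2 change 2.28 with SE 0.28, edgeR adjusted p = 0.00038, and 0.0125 with the 7 samples alone). Socs2, another such inhibitor, was at 13, 23.1 and 13.7 CPM in WT and 396, 40.0, 154 and 178 CPM in HER2 mutants, with HER2 1 the highest and HER2 2 the lowest (log2 change 3.53 with SE 0.53, edgeR adjusted p = 0.00128, and 0.052 with the 7 samples alone). Socs1, an inhibitor of JAK kinases, was lower, at 5.63, 6.32 and 5.54 CPM in WT and 2.51, 2.62, 3.58 and 2.85 CPM in HER2 mutants. Socs1 did not overlap between the groups, and HER2 3 came nearest to WT (log2 change -1.01 with SE 0.22, edgeR adjusted p = 0.00971, and 0.0624 with the 7 samples alone). The upstream genes did not pass. Prlr, the prolactin receptor, was at 137, 119 and 118 CPM in WT and 90.3, 72.2, 89.2 and 103 CPM in HER2 mutants (-0.49, edgeR adjusted p = 0.263). Stat5a was at 216, 178 and 228 CPM in WT and 194, 130.4, 198 and 222 CPM in HER2 mutants (-0.15, edgeR adjusted p = 0.63). Elf5, the alveolar lineage factor, was at 224, 197 and 178 CPM in WT and 319, 173, 269 and 415 CPM in HER2 mutants (0.56, edgeR adjusted p = 0.244).

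Among 18 tested genes of milk fat synthesis and secretion, 7 were higher and 1 lower. The count of 7 became 3 to 7 when 1 sample was left out (3 without WT 1, 3 without WT 2 and 3 without WT 3), 4 without HER2 1 and 4, and 2 in the 7-sample fit. Btn1a1, the butyrophilin needed to bud milk fat globules from the cell, was at 6.36, 3.3 and 2.4 CPM in WT and 77, 93.4, 326 and 364 CPM in HER2 mutants. HER2 3 and 4 were well above HER2 1 and 2, and all 4 were above WT (log2 change 5.74 with SE 0.83, edgeR adjusted p = 0.00107). Fasn, fatty acid synthase, was at 502, 505 and 598 CPM in WT and 2149, 1114, 2029 and 3412 CPM in HER2 mutants, highest in HER2 4 (log2 change 2.02 with SE 0.37, edgeR adjusted p = 0.00386). Both passed with the 7 samples alone (0.0218 and 0.0404). Plin2, which coats lipid droplets, was lower in every HER2 mutant, at 1341, 1072 and 1731 CPM in WT and 379.8, 283, 922 and 484 CPM in HER2 mutants. In Plin2 every mutant was below every WT sample, with HER2 2 the lowest (log2 change -1.42 with SE 0.29, edgeR adjusted p = 0.00686, and 0.102 with the 7 samples alone). Scd1, a stearoyl-CoA desaturase, overlapped between groups, at 11441, 4199 and 9859 CPM in WT and 4302, 5281, 15569 and 10924 CPM in HER2 mutants (edgeR adjusted p = 0.926).

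Of 20 cholesterol synthesis genes 12 were higher and none lower, with a median log2 fold change of 1.14. The count of 12 became 5 to 16 when 1 sample was left out (6 without WT 1, 7 without WT 2, 5 without WT 3, 7 without HER2 1 and 8 without HER2 4), 5 without HER2 1 and 4, and 1 in the 7-sample fit. The mean log2 CPM of the list was 4.0, 3.94 and 4.07 in WT and 5.83, 4.23, 4.90 and 5.37 in HER2 mutants, so HER2 2 lay closest to WT and HER2 1 farthest. Mvd, mevalonate decarboxylase, was at 5.98, 7.32 and 6.97 CPM in WT and 54.3, 11.7, 21.8 and 34.7 CPM in HER2 mutants. For Mvd all mutants lay above all WT samples, HER2 1 the farthest (log2 change 2.18 with SE 0.47, edgeR adjusted p = 0.00963). The Mvd call was lost without WT 3 (adjusted p up to 0.0516), without HER2 1 and 4 together (0.0602) and under 2 of 11 other settings. Sqle, squalene epoxidase, overlapped, with HER2 2 below all WT samples (42.5, 37.9 and 46 CPM in WT and 158, 30.7, 70.6 and 96.9 CPM in HER2 mutants, edgeR adjusted p = 0.0675).

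Part of the basal keratin and contractile set was lower, and the luminal keratins Krt8 and Krt18 did not pass. Krt8 was at 313, 341 and 314 CPM in WT and 266, 333, 506 and 353 CPM in HER2 mutants, and Krt18 was at 529, 509.8 and 550.5 CPM in WT and 339.7, 578, 884 and 499 CPM in HER2 mutants. Both overlapped and did not pass (edgeR adjusted p = 0.733 and 0.857). Of 16 luminal and epithelial genes, Krt7 alone passed, beside 10.4% of all tested genes. Krt7 was at 93.2, 109 and 78.3 CPM in WT and 144, 251, 418 and 177 CPM in HER2 mutants. Krt7 stayed outside the WT range in every mutant, with HER2 1 nearest to it (log2 change 1.4 with SE 0.40, edgeR adjusted p = 0.0381). The Krt7 call was lost without WT 1, WT 2, WT 3, HER2 2 or HER2 3 (adjusted p up to 0.165), with the chromosome medians removed (0.0596) and under 2 of 11 other settings. Of 13 basal and myoepithelial markers, 4 were lower and none higher. The count of 4 became 3 to 5 when 1 sample was left out. Krt5, a basal keratin, was at 279.7, 345 and 131 CPM in WT and 44.8, 14.1, 52 and 25.6 CPM in HER2 mutants (log2 change -2.89 with SE 0.57, edgeR adjusted p = 0.00592). Myh11, smooth muscle myosin, was at 5.58, 12 and 8.29 CPM in WT and 1.36, 1.45, 1.13 and 0.962 CPM in HER2 mutants (log2 change -2.81 with SE 0.34, edgeR adjusted p = 0.000344). All HER2 mutants were below all WT samples for both, and both passed with the 7 samples alone (0.0383 and 0.0151). The contractile genes Mylk (-2.74, edgeR adjusted p = 0.00118) and Cnn1 (-2.10, edgeR adjusted p = 0.0418) were the other lower members, and the Cnn1 call was lost without WT 1, WT 2, WT 3, HER2 1, HER2 3 or HER2 4 (adjusted p up to 0.183) and without HER2 1 and 4 together (0.181). Krt14, the usual partner of Krt5, did not follow it, at 267, 243 and 122 CPM in WT and 507, 179, 111 and 32 CPM in HER2 mutants, with HER2 1 above and HER2 4 below every WT sample (edgeR adjusted p = 0.985).

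Hormone-sensing and progenitor markers were uneven. Of 10 tested hormone-sensing luminal markers, 1 was higher and 1 lower. Greb1, an estrogen-receptor target, was at 35.5, 25.6 and 13 CPM in WT and 0.736, 1.37, 0.423 and 1.68 CPM in HER2 mutants. Greb1 did not overlap between the groups, and HER2 4 came nearest to WT (log2 change -4.55 with SE 0.88, edgeR adjusted p = 0.00529, and 0.0172 with the 7 samples alone). Pgr, the progesterone receptor, was near 0 in HER2 1 and 3 but at the WT level in HER2 2, at 29.8, 40.5 and 30.1 CPM in WT and 0.396, 33.8, 0.69 and 5.73 CPM in HER2 mutants (edgeR adjusted p = 0.382). Esr1, the estrogen receptor, was below all WT samples in every HER2 mutant without passing, at 31.9, 44 and 29.6 CPM in WT and 23.3, 25.5, 22.9 and 18.9 CPM in HER2 mutants (edgeR adjusted p = 0.105). Of 8 luminal progenitor markers, Itgb3, the integrin known as CD61, was lower, at 204, 221 and 309.9 CPM in WT and 83.2, 81.3, 66 and 76 CPM in HER2 mutants. In Itgb3 every mutant was below every WT sample, with HER2 3 the lowest (log2 change -1.68 with SE 0.32, edgeR adjusted p = 0.00486, and 0.0143 with the 7 samples alone). Sox10 overlapped, at 772, 643 and 719.8 CPM in WT and 1011, 378, 667 and 1041 CPM in HER2 mutants.

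Macrophage and myeloid markers had the lowest median log2 fold change of all lists, -4.35, and 14 of 19 were lower. The count of 14 became 3 to 16 when 1 sample was left out (6 without WT 1, 3 without WT 3 and 9 without HER2 3), 14 without HER2 1 and 4, and 0 in the 7-sample fit. Mpeg1, which encodes the pore-forming perforin-2, was at 117, 64 and 317 CPM in WT and 18.9, 6.8, 1.45 and 0.471 CPM in HER2 mutants (log2 change -4.58 with SE 0.93, edgeR adjusted p = 0.00675). Mrc1, the mannose receptor, was at 26.4, 18.1 and 64.6 CPM in WT and 3.83, 1.02, 0.223 and 0.225 CPM in HER2 mutants (log2 change -4.77 with SE 0.96, edgeR adjusted p = 0.00646). Gpnmb, a glycoprotein of lipid-laden macrophages, was at 570.2, 132 and 807 CPM in WT and 68.7, 6.65, 0.245 and 1.84 CPM in HER2 mutants (log2 change -4.70 with SE 1.28, edgeR adjusted p = 0.0305). All HER2 mutants were below all WT samples in these genes, with HER2 1 the highest of them HER2 3 and 4 the lowest, and WT 2 the lowest of the WT samples. With the 7 samples alone the adjusted p was 0.0857, 0.0623 and 0.152, and the Gpnmb call was also lost without WT 1, WT 3, HER2 2 or HER2 4 (adjusted p up to 0.11) and under 1 of 11 other settings. Lyz2, lysozyme, did not pass, at 1109, 405 and 2649 CPM in WT and 142, 58.2, 0.2 and 0.123 CPM in HER2 mutants (edgeR adjusted p = 0.0627). The leukocyte genes Myo1f, Ctss, Cd84 and Dock10, also among the 12 largest decreases, had the same order of samples within WT, and of them Dock10 passed with the 7 samples alone (0.0489). The Ctss call was lost without WT 1, WT 3 or HER2 3 (adjusted p up to 0.135) and under 3 of 11 other settings, and the Cd84 call was lost without WT 1 or WT 3 (adjusted p up to 0.133) and under 4 of 11 other settings. Dock10 was at 14.8, 12.7 and 50.9 CPM in WT and 1.7, 2.04, 0.267 and 0.246 CPM in HER2 mutants. For Dock10 all mutants lay below all WT samples, HER2 4 the farthest (log2 change -4.61 with SE 0.81, edgeR adjusted p = 0.00305).

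Cd163 went the other way. This scavenger receptor, listed with the macrophage markers, was at 3.57, 7.62 and 4.8 CPM in WT and 29.5, 21, 20.01 and 20.7 CPM in HER2 mutants. Cd163 stayed outside the WT range in every mutant, with HER2 3 nearest to it (log2 change 2.10 with SE 0.23, edgeR adjusted p = 0.000218, and 0.0273 with the 7 samples alone). All HER2 mutants were above all WT samples. The leukocyte gene Ptprc was at 0.0445 and 0.0409 CPM in HER2 3 and 4, fewer than 3 reads in each. Which cells the Cd163 RNA came from was not tested.

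Fibroblast markers were lower in the median (-2.14), but 3 of 14 passed: Pdgfra, Pdgfrb and Dpt. Pdgfra, a PDGF receptor, was at 93.6, 134 and 113 CPM in WT and 3.81, 30.4, 10.5 and 29.8 CPM in HER2 mutants (log2 change -2.61 with SE 0.54, edgeR adjusted p = 0.00738, and 0.0729 with the 7 samples alone). HER2 1 was the lowest and HER2 2 and 4 the highest of the mutants. Pdgfrb was at 26.7, 40.7 and 129.8 CPM in WT and 2.07, 6.44, 1.27 and 15.6 CPM in HER2 mutants. Pdgfrb did not overlap between the groups, and HER2 4 came nearest to WT (log2 change -3.37 with SE 0.82, edgeR adjusted p = 0.018). The Pdgfrb call was lost without WT 3 (adjusted p up to 0.129) and under 1 of 11 other settings. The Dpt call was lost without WT 3 (adjusted p up to 0.127) and without HER2 1 and 4 together (0.0552). Collagen genes such as Col1a1, Col1a2 and Col3a1 did not pass. Of 20 other collagens and matrix proteins, 3 were lower and none higher. The count of 3 became 2 to 6 when 1 sample was left out (2 without WT 1, 2 without WT 2, 2 without HER2 2 and 6 without HER2 4). Comp, a matrix protein that assembles collagen, was at 15, 68.3 and 31.5 CPM in WT and 1.34, 2.35, 2.4 and 1.47 CPM in HER2 mutants. In Comp every mutant was below every WT sample, with HER2 1 the lowest (log2 change -4.34 with SE 0.71, edgeR adjusted p = 0.00219, and 0.0172 with the 7 samples alone). Sparc was also lower (-2.02, edgeR adjusted p = 0.00215), as was the basal-cell collagen Col17a1, at 353, 469 and 141 CPM in WT and 92.4, 27.7, 115 and 16 CPM in HER2 mutants. For Col17a1 all mutants lay below all WT samples, HER2 4 the farthest (log2 change -2.36 with SE 0.64, edgeR adjusted p = 0.0304). The Col17a1 call was lost without WT 1, WT 2 or HER2 2 (adjusted p up to 0.0986), without HER2 1 and 4 together (0.0756) and under 4 of 11 other settings. Of 7 tested endothelial markers, Vwf and Erg were lower. Vwf, which encodes von Willebrand factor, was at 4, 4.9 and 24.5 CPM in WT and 1.49, 1.54, 0.289 and 1.02 CPM in HER2 mutants (-3.35, edgeR adjusted p = 0.00454). Fabp4 was the 1 lower gene of 5 tested adipocyte markers, Cd4 of 4 lymphocyte markers and Des of 5 skeletal muscle markers. Of 6 Schwann cell markers 2 were lower and 1, Cdh19, was higher. Cdh19, a cadherin, was at 0.857, 1.42 and 1.99 CPM in WT and 13.7, 2.18, 11.5 and 17.4 CPM in HER2 mutants (2.98, edgeR adjusted p = 0.00473). Vwf, Erg and Cdh19 kept the call whichever sample was left out. With the 7 samples alone Erg passed (0.0113) but Vwf (0.0698) and Cdh19 (0.0658) did not. Under limma voom both Vwf and Erg lost the call. Fabp4 lost it without WT 3, and Cd4 and Des each without any of at least 5 samples.

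Most chemokine and protease genes that passed were lower. Of 19 tested chemokine genes, 7 were lower and 1 higher, although the list median was 0.33. The count of 7 became 2 to 7 when 1 sample was left out (3 without WT 2, 2 without WT 3, 4 without HER2 1, 3 without HER2 3 and 4 without HER2 4), and without HER2 1 and 4 there were 3 lower and 4 higher. Cxcl12, a chemoattractant for leukocytes and progenitors, was at 78.8, 168 and 114 CPM in WT and 18.2, 4.51, 6.81 and 5.42 CPM in HER2 mutants (log2 change -3.78 with SE 0.46, edgeR adjusted p = 0.000375, and 0.0273 with the 7 samples alone). HER2 1 was the highest of the mutants and still below all WT samples. Ccl6, a macrophage chemokine, was at 164, 182 and 328 CPM in WT and 15.2, 51.9, 0.823 and 0.716 CPM in HER2 mutants. Ccl6 stayed outside the WT range in every mutant, with HER2 2 nearest to it (log2 change -3.71 with SE 1.13, edgeR adjusted p = 0.0478). The Ccl6 call was lost without WT 1, WT 2, WT 3, HER2 1, HER2 3 or HER2 4 (adjusted p up to 0.159), without HER2 1 and 4 together (0.124), with the chromosome medians removed (0.0563) and under 6 of 11 other settings. Ccl20, an epithelial chemokine, was the higher member, at under 0.1 CPM in every WT sample and 0.754, 0.193, 2.34 and 1.06 CPM in HER2 mutants. The Ccl20 call was lost without WT 1 or WT 3 (adjusted p up to 0.0918). Of 16 tested metalloproteinases and inhibitors, 5 were lower and 1 higher. The 5 lower became 3 to 4 when 1 sample was left out (3 without WT 1, 3 without WT 2, 3 without WT 3 and 3 without HER2 1), and 0 in the 7-sample fit. The Mmp19 call was lost without WT 1, WT 2, WT 3, HER2 1, HER2 2 or HER2 3 (adjusted p up to 0.145) and with the chromosome medians removed (0.0513), and the Timp2 call was lost without WT 1, WT 2, WT 3, HER2 1 or HER2 4 (adjusted p up to 0.194), without HER2 1 and 4 together (0.144) and with the chromosome medians removed (0.0813). Mmp2, gelatinase A, was at 91.6, 404 and 243 CPM in WT and 14.4, 39, 11.1 and 47.3 CPM in HER2 mutants. Mmp2 did not overlap between the groups, and HER2 4 came nearest to WT (log2 change -3.14 with SE 0.53, edgeR adjusted p = 0.00239, and 0.0514 with the 7 samples alone). Mmp11, stromelysin-3, was at 16.5, 51.9 and 51.6 CPM in WT and 2.81, 12.9, 8.28 and 8.7 CPM in HER2 mutants. In Mmp11 every mutant was below every WT sample, with HER2 1 the lowest (log2 change -2.29 with SE 0.42, edgeR adjusted p = 0.00411, and 0.0704 with the 7 samples alone). Adamts9 was higher, at 2.45, 7.4 and 4.87 CPM in WT and 35.8, 9.54, 12.2 and 39.1 CPM in HER2 mutants. For Adamts9 all mutants lay above all WT samples, HER2 4 the farthest (log2 change 2.30 with SE 0.47, edgeR adjusted p = 0.00732). The Adamts9 call was lost without HER2 1 and 4 together (0.0506) and under 2 of 11 other settings. The fibroblast and macrophage sums given at the start were lower in HER2 mutants too. Among the mutants, Mmp2 was highest in HER2 4, as was the fibroblast sum, and Cxcl12 was highest in HER2 1, where that sum was lowest. Ccl6 was highest in HER2 2, while the macrophage sum was highest in HER2 1. The part of either cell type in the decreases was not tested.

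Antigen presentation genes showed 3 lower members of 16, H2-Aa, Cd74 and H2-DMa, all of the class II pathway. H2-DMa was at 7.46, 5.46 and 8.29 CPM in WT and 4.38, 3.95, 3.27 and 3.77 CPM in HER2 mutants. H2-DMa stayed outside the WT range in every mutant, with HER2 1 nearest to it (log2 change -0.88 with SE 0.21, edgeR adjusted p = 0.0179). The H2-DMa call was lost without WT 1 or WT 3 (adjusted p up to 0.11) and under 3 of 11 other settings. The H2-Aa call was lost without WT 2 (adjusted p up to 0.1). The class I gene H2-D1 overlapped, at 745, 383 and 717 CPM in WT and 257, 654, 809 and 235 CPM in HER2 mutants. None of 27 interferon-stimulated genes passed, although the list median was -0.79. WT 1 had the highest mean log2 CPM of that list, 4.71, 2.41 and 3.36 in WT against 2.40, 2.28, 3.54 and 3.07 in HER2 mutants. Of 12 tested antimicrobial and acute-phase genes, 2 were higher. Lbp, the lipopolysaccharide-binding protein, was at 161, 309 and 164 CPM in WT and 809.5, 1215, 1982 and 681 CPM in HER2 mutants. Lbp did not overlap between the groups, and HER2 4 came nearest to WT (log2 change 2.47 with SE 0.36, edgeR adjusted p = 0.00108, and 0.0404 with the 7 samples alone). Lcn2, lipocalin-2, was at 4931, 5230.5 and 4945 CPM in WT and 16684, 6819.6, 13994 and 7763 CPM in HER2 mutants, above WT in every mutant (log2 change 1.17 with SE 0.31, edgeR adjusted p = 0.0262). The Lcn2 call was lost without WT 1, WT 2, WT 3, HER2 1 or HER2 3 (adjusted p up to 0.107) and under 1 of 11 other settings.

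Cell-cycle genes gave a clear decrease of Rb1. This retinoblastoma gene, a brake on entry into S phase, was at 603, 544 and 578 CPM in WT and 131, 132, 234 and 94.6 CPM in HER2 mutants. HER2 3 was the highest of the mutants and HER2 4 the lowest, and all were below all WT samples (log2 change -1.96 with SE 0.24, edgeR adjusted p = 0.000375, and 0.0294 with the 7 samples alone). Lpar6 lies inside an Rb1 intron, and the strand setting of the counts is not given in the sources used here. The related Rbl2 was at 65.1, 52.3 and 65.9 CPM in WT and 34.1, 42.9, 45.1 and 42.3 CPM in HER2 mutants. In Rbl2 every mutant was below every WT sample, with HER2 1 the lowest (log2 change -0.57 with SE 0.13, edgeR adjusted p = 0.0151). The Rbl2 call was lost without WT 1 or WT 3 (adjusted p up to 0.0911), without HER2 1 and 4 together (0.0573) and under 4 of 11 other settings. E2f1, the factor held by Rb1, was higher, at 6.03, 9.07 and 9.51 CPM in WT and 22.6, 12.9, 15.5 and 11 CPM in HER2 mutants. For E2f1 all mutants lay above all WT samples, HER2 1 the farthest (log2 change 0.92 with SE 0.24, edgeR adjusted p = 0.0252). The E2f1 call was lost without WT 1, WT 3 or HER2 1 (adjusted p up to 0.128) and under 2 of 11 other settings. Of 15 G1 cyclins, kinases and CDK inhibitors, 5 were higher and none lower: Ccnd1, Ccnd3, Ccne1, Cdk6 and Cdkn1a. The count of 5 became 1 to 6 when 1 sample was left out (1 without WT 1 and 1 without WT 3), 3 without HER2 1 and 4, and 0 in the 7-sample fit. The Ccnd3 call was lost without WT 3 (adjusted p up to 0.0553). The Cdk6 call was lost without WT 1, WT 3, HER2 2, HER2 3 or HER2 4 (adjusted p up to 0.15).

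Ccnd1, which encodes cyclin D1, was at 70.7, 119.6 and 55.5 CPM in WT and 512, 164, 162 and 183 CPM in HER2 mutants. HER2 1 stood far above the other 3 mutants, which lay close together and above WT (log2 change 1.64 with SE 0.41, edgeR adjusted p = 0.0208). The Ccnd1 call was lost without WT 1 or WT 3 (adjusted p up to 0.118), without HER2 1 and 4 together (0.07) and under 2 of 11 other settings. Cdkn1a, which encodes p21, was at 17.8, 51.4 and 25.6 CPM in WT and 263, 68.8, 209 and 57.7 CPM in HER2 mutants, highest in HER2 1 and 3, with HER2 4 just above WT 2 (log2 change 2.24 with SE 0.56, edgeR adjusted p = 0.0204). The Cdkn1a call was lost without WT 1 or WT 3 (adjusted p up to 0.106) and under 2 of 11 other settings. Ccne1, cyclin E1, was at 0.804, 1.18 and 1.58 CPM in WT and 9.66, 1.77, 3.34 and 4.56 CPM in HER2 mutants. Ccne1 stayed outside the WT range in every mutant, with HER2 2 nearest to it (log2 change 2.02 with SE 0.44, edgeR adjusted p = 0.0104). The Ccne1 call was lost without WT 1 (adjusted p up to 0.0581), without HER2 1 and 4 together (0.0511) and under 2 of 11 other settings. Cdk4 overlapped, at 99.97, 125 and 109.8 CPM in WT and 135, 109.5, 109 and 164 CPM in HER2 mutants (edgeR adjusted p = 0.535).

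Of 20 mitosis genes, 7 were higher and none lower. This count became 2 to 9 when 1 sample was left out (2 without WT 1, 3 without WT 2, 3 without WT 3 and 4 without HER2 1), 2 without HER2 1 and 4, and 1 in the 7-sample fit. The mean log2 CPM of the list was 0.95, 2.0 and 2.44 in WT and 4.35, 2.34, 2.38 and 3.42 in HER2 mutants, so HER2 2 and 3 lay beside WT 3. Bub1b, a spindle checkpoint kinase, was at 2.17, 3.92 and 4.04 CPM in WT and 26.3, 7.27, 10.7 and 13.7 CPM in HER2 mutants (log2 change 2.10 with SE 0.38, edgeR adjusted p = 0.00351, and 0.0653 with the 7 samples alone). Ube2c, an enzyme of mitotic exit, was at 1.42, 3.5 and 5.19 CPM in WT and 35.4, 7.23, 9.86 and 11.5 CPM in HER2 mutants. Ube2c did not overlap between the groups, and HER2 2 came nearest to WT (log2 change 2.25 with SE 0.57, edgeR adjusted p = 0.0208). The Ube2c call was lost without WT 1 or WT 2 (adjusted p up to 0.0933), without HER2 1 and 4 together (0.0916) and under 3 of 11 other settings. Mki67, the proliferation marker Ki-67, overlapped, at 10.6, 32.8 and 53 CPM in WT and 271, 34.3, 31.2 and 107 CPM in HER2 mutants, with HER2 1 and 4 above all WT samples and HER2 2 and 3 within the WT range (edgeR adjusted p = 0.132). None of 18 DNA replication genes passed, and Mcm7 was at 49.7, 44.8 and 60.2 CPM in WT and 52.2, 46.1, 45.5 and 66 CPM in HER2 mutants.

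Of 16 p53 pathway genes, 6 were higher and 1 lower. The count of 6 became 3 to 9 when 1 sample was left out (3 without WT 1, 3 without WT 3, 3 without HER2 3 and 9 without HER2 4), 7 without HER2 1 and 4, and 2 in the 7-sample fit. Zmat3, an RNA-binding p53 target, was at 36.9, 53 and 39.2 CPM in WT and 252, 90.3, 185 and 109.6 CPM in HER2 mutants. In Zmat3 every mutant was above every WT sample, with HER2 1 the highest (log2 change 1.89 with SE 0.32, edgeR adjusted p = 0.00273). Eda2r, a death receptor, was at 0.996, 3.44 and 1.2 CPM in WT and 39.1, 11.9, 23.4 and 4.97 CPM in HER2 mutants. For Eda2r all mutants lay above all WT samples, HER2 1 the farthest (log2 change 3.40 with SE 0.60, edgeR adjusted p = 0.0031, and 0.0698 with the 7 samples alone). HER2 1 and 3 were the highest for both, as for Cdkn1a. Gadd45a, a stress-response p53 target, was lower, at 38.4, 31.4 and 51 CPM in WT and 11.7, 16.9, 17.6 and 14.8 CPM in HER2 mutants. Gadd45a stayed outside the WT range in every mutant, with HER2 3 nearest to it (log2 change -1.4 with SE 0.32, edgeR adjusted p = 0.0134). The Gadd45a call was lost without WT 3 (adjusted p up to 0.0838), without HER2 1 and 4 together (0.069) and under 1 of 11 other settings. Of 15 BCL2 family genes, 2 were higher and 2 lower. The 2 higher became 1 to 4 when 1 sample was left out (1 without WT 1, 1 without WT 2, 1 without WT 3, 1 without HER2 3, 3 without HER2 2 and 4 without HER2 4). The pro-apoptotic Bmf was higher, at 16.9, 15.4 and 18.3 CPM in WT and 70.8, 43.8, 62.2 and 92.1 CPM in HER2 mutants. Bmf did not overlap between the groups, and HER2 2 came nearest to WT (log2 change 1.99 with SE 0.28, edgeR adjusted p = 0.000759, and 0.0188 with the 7 samples alone). The pro-apoptotic Bik was lower, at 22.7, 15.8 and 23.5 CPM in WT and 5.96, 5.86, 12.5 and 8.97 CPM in HER2 mutants. In Bik every mutant was below every WT sample, with HER2 2 the lowest (log2 change -1.31 with SE 0.26, edgeR adjusted p = 0.00589, and 0.0718 with the 7 samples alone). Bbc3, which encodes PUMA, was higher (0.77, edgeR adjusted p = 0.0476). The Bbc3 call was lost without WT 1, WT 2, WT 3, HER2 1 or HER2 3 (adjusted p up to 0.168), without HER2 1 and 4 together (0.0884), with the chromosome medians removed (0.0696) and under 6 of 11 other settings.

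Glycolysis and pentose phosphate genes included 7 higher and no lower members of 23. Those 7 became 1 to 8 when 1 sample was left out (2 without WT 1, 1 without WT 3, 3 without HER2 1 and 4 without HER2 3), 3 without HER2 1 and 4, and 1 in the 7-sample fit. Hk2, the hexokinase that starts glycolysis in growing cells, was at 22.8, 32.7 and 27.8 CPM in WT and 153, 125, 109 and 101 CPM in HER2 mutants, with the 4 mutants close together (log2 change 2.13 with SE 0.37, edgeR adjusted p = 0.00279, and 0.0112 with the 7 samples alone). Pdk1, which diverts pyruvate from mitochondria, was at 34.3, 91.5 and 41 CPM in WT and 208, 105, 119.6 and 124 CPM in HER2 mutants. For Pdk1 all mutants lay above all WT samples, HER2 1 the farthest (log2 change 1.32 with SE 0.32, edgeR adjusted p = 0.016). The Pdk1 call was lost without WT 1 or WT 3 (adjusted p up to 0.101), without HER2 1 and 4 together (0.0638) and under 2 of 11 other settings. Gapdh was above all WT samples in every HER2 mutant without passing, at 752, 1436 and 776 CPM in WT and 3988, 1761, 2885 and 1485 CPM in HER2 mutants (edgeR adjusted p = 0.0975). None of 21 nuclear and none of 13 mitochondrial genes of oxidative phosphorylation passed. Of 33 ribosomal protein genes, Rpl32 alone passed (1.03, edgeR adjusted p = 0.00772). The Rpl32 call was lost without WT 3 (adjusted p up to 0.0524). Of 21 ER stress and ATF4 genes, 3 were higher (beside 4.75% of all tested genes), the chaperones Hspa5 and Hsp90b1 and the stress gene Sesn2. The 3 became 2 to 6 when 1 sample was left out (2 without WT 1, 2 without WT 2, 2 without WT 3, 2 without HER2 3 and 6 without HER2 2), and 0 in the 7-sample fit. Hspa5 was at 249, 271 and 293 CPM in WT and 777, 374, 596 and 741 CPM in HER2 mutants (log2 change 1.20 with SE 0.23, edgeR adjusted p = 0.00533, and 0.0591 with the 7 samples alone). HER2 2 was the lowest of the mutants and above all WT samples. The Sesn2 call was lost without WT 1, WT 2, WT 3 or HER2 3 (adjusted p up to 0.0967).

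Redox defence genes were lower in 4 and higher in 1 of 19 members. The count of 4 lower genes became 2 to 4 when 1 sample was left out (2 without WT 1, 2 without WT 2 and 2 without WT 3). Gpx3, a secreted glutathione peroxidase, was at 67.1, 60.9 and 82.2 CPM in WT and 5.51, 13.4, 9.08 and 9.6 CPM in HER2 mutants (log2 change -2.90 with SE 0.38, edgeR adjusted p = 0.000633, and 0.0112 with the 7 samples alone). Nqo1, a quinone reductase and target of NRF2, was at 182, 252 and 174 CPM in WT and 24, 31.1, 63.8 and 10.6 CPM in HER2 mutants (log2 change -2.64 with SE 0.39, edgeR adjusted p = 0.00116, and 0.049 with the 7 samples alone). All mutants were below all WT samples for both. Catalase (Cat, -0.73, edgeR adjusted p = 0.0249) and Gpx1 (-0.81, edgeR adjusted p = 0.0317) were the other lower members, and Gsta4 was higher (1.21, edgeR adjusted p = 0.0118). The Cat call was lost without WT 1, WT 2, WT 3 or HER2 3 (adjusted p up to 0.1). The Gpx1 call was lost without WT 1, WT 2, WT 3, HER2 2, HER2 3 or HER2 4 (adjusted p up to 0.111) and with the chromosome medians removed (0.0718). The Gsta4 call was lost without WT 2 or WT 3 (adjusted p up to 0.0693).

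Wnt pathway genes changed in both directions, 3 higher and 3 lower of 22 tested, beside 4.75% and 5.63% of all tested genes. Lgr5, a receptor for R-spondins, which the medium supplies, and a stem-cell marker, was at 72.3, 59.6 and 27.7 CPM in WT and 0.377, 2.2, 0.69 and 3.73 CPM in HER2 mutants. Lgr5 stayed outside the WT range in every mutant, with HER2 4 nearest to it (log2 change -4.93 with SE 0.84, edgeR adjusted p = 0.00261, and 0.0328 with the 7 samples alone). Its relative Lgr4 was higher, at 135, 111 and 111 CPM in WT and 161, 243, 211 and 164 CPM in HER2 mutants. Lgr4 did not overlap between the groups, and HER2 1 came nearest to WT (log2 change 0.71 with SE 0.15, edgeR adjusted p = 0.00909). The Lgr4 call was lost without WT 3 (adjusted p up to 0.0626) and under 1 of 11 other settings. Dkk3, a secreted protein of the Dickkopf family, was lower, at 28.8, 45.1 and 17.5 CPM in WT and 2.07, 3.78, 7.41 and 5.02 CPM in HER2 mutants. In Dkk3 every mutant was below every WT sample, with HER2 1 the lowest (log2 change -2.74 with SE 0.49, edgeR adjusted p = 0.0036, and 0.0376 with the 7 samples alone). The Wnt inhibitor Sfrp1 was lower (-1.25, edgeR adjusted p = 0.0266). The Sfrp1 call was lost without WT 1, WT 2, WT 3 or HER2 1 (adjusted p up to 0.078) and without HER2 1 and 4 together (0.107). The ligand Wnt7b was at 42.7, 38.2 and 30.9 CPM in WT and 45.8, 160.5, 208 and 79.8 CPM in HER2 mutants, highest in HER2 2 and 3 (log2 change 1.73 with SE 0.52, edgeR adjusted p = 0.0466). The Wnt7b call was lost without WT 1, WT 2, WT 3, HER2 2 or HER2 3 (adjusted p up to 0.185), with the chromosome medians removed (0.0682) and under 5 of 11 other settings. Wnt7a had 1 read in all WT samples together and was at 0.396, 0.983, 3.96 and 1.04 CPM in HER2 mutants.

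Of 15 Notch pathway genes, 3 were lower and none higher. Those 3 became 1 to 5 when 1 sample was left out (1 without WT 1, 1 without WT 3 and 5 without HER2 1). Hey2, a Notch target, was lower in every mutant, at 11, 11 and 5.71 CPM in WT and 0.113, 0.347, 0.668 and 0.532 CPM in HER2 mutants. For Hey2 all mutants lay below all WT samples, HER2 1 the farthest (log2 change -4.48 with SE 0.62, edgeR adjusted p = 0.000794, and 0.0188 with the 7 samples alone). The receptor Notch1 was at 1214, 997 and 1216 CPM in WT and 748, 666, 723 and 361 CPM in HER2 mutants. Notch1 stayed outside the WT range in every mutant, with HER2 1 nearest to it (log2 change -0.87 with SE 0.24, edgeR adjusted p = 0.0328). The Notch1 call was lost without WT 1, WT 3 or HER2 4 (adjusted p up to 0.127), without HER2 1 and 4 together (0.0677) and under 5 of 11 other settings. Notch2 was at 489, 416 and 519.8 CPM in WT and 156, 336, 336 and 229.6 CPM in HER2 mutants. Notch2 did not overlap between the groups, and HER2 3 came nearest to WT (log2 change -0.84 with SE 0.21, edgeR adjusted p = 0.0198). The Notch2 call was lost without WT 1 or WT 3 (adjusted p up to 0.0987), without HER2 1 and 4 together (0.0526) and under 4 of 11 other settings. Notch3 overlapped, at 191, 213 and 145 CPM in WT and 181, 235, 214 and 269.6 CPM in HER2 mutants. Of 21 TGF-beta and BMP genes, 1 was higher and 4 lower. The 4 lower became 0 to 4 when 1 sample was left out (1 without WT 1, 2 without WT 2, 0 without WT 3, 2 without HER2 2 and 2 without HER2 4), and 0 in the 7-sample fit. The ligand Tgfb2 was higher, at 25.9, 34.2 and 20.9 CPM in WT and 176, 35.2, 79.8 and 129 CPM in HER2 mutants, with HER2 2 just above WT 2 (log2 change 1.96 with SE 0.38, edgeR adjusted p = 0.00533, and 0.0854 with the 7 samples alone). The inhibin subunit Inhbb was lower, at 847, 651 and 776 CPM in WT and 541, 222, 254 and 130.0 CPM in HER2 mutants. In Inhbb every mutant was below every WT sample, with HER2 4 the lowest (log2 change -1.4 with SE 0.40, edgeR adjusted p = 0.0353). The Inhbb call was lost without WT 1, WT 2, WT 3, HER2 2, HER2 3 or HER2 4 (adjusted p up to 0.114) and under 2 of 11 other settings. The BMP target Id3 was lower, at 19.2, 9.77 and 11.8 CPM in WT and 0.339, 2.89, 4.61 and 1.02 CPM in HER2 mutants (-2.62, edgeR adjusted p = 0.0432). The Id3 call was lost without WT 1, WT 2, WT 3, HER2 1, HER2 2 or HER2 4 (adjusted p up to 0.147), without HER2 1 and 4 together (0.147), with the chromosome medians removed (0.0543) and under 4 of 11 other settings. The other lower members, the receptor Tgfbr1 (-0.86, edgeR adjusted p = 0.0117) and the ligand Bmp2 (-2.19, edgeR adjusted p = 0.0238), had calls that were lost without WT 3 (adjusted p up to 0.0829) and lost without WT 1 or WT 3 (adjusted p up to 0.0932).

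Basement membrane and surface genes also split. Of 23 laminins, nidogens and integrins, 3 were higher, the laminin chains Lama4, Lama5 and Lamc1, and 4 lower, Lama2, Nid2, Vcam1 and Itgb5. The 4 lower became 0 to 4 when 1 sample was left out (2 without WT 2, 0 without WT 3, 2 without HER2 1 and 2 without HER2 3). Nid2 and Itgb5 lost their call without WT 3, and Lama2 without any of 5 samples. Lama4 was at 34.4, 62.6 and 49.6 CPM in WT and 142, 88.8, 123 and 176 CPM in HER2 mutants. For Lama4 all mutants lay above all WT samples, HER2 4 the farthest (log2 change 1.44 with SE 0.22, edgeR adjusted p = 0.00148, and 0.0469 with the 7 samples alone). Lama5 was at 413, 583 and 336 CPM in WT and 905, 1485, 1803 and 639 CPM in HER2 mutants, highest in HER2 3 (log2 change 1.44 with SE 0.41, edgeR adjusted p = 0.0367). The Lama5 call was lost without WT 1, WT 3, HER2 2 or HER2 3 (adjusted p up to 0.169), with the chromosome medians removed (0.0576) and under 2 of 11 other settings. Vcam1, an adhesion molecule, was at 4, 17.2 and 5.14 CPM in WT and 0.207, 1.37, 0.668 and 1.94 CPM in HER2 mutants. Vcam1 stayed outside the WT range in every mutant, with HER2 4 nearest to it (log2 change -3.07 with SE 0.83, edgeR adjusted p = 0.0297). The Vcam1 call was lost without WT 2, WT 3, HER2 1 or HER2 3 (adjusted p up to 0.142), without HER2 1 and 4 together (0.074) and under 5 of 11 other settings. Among 9 tested EMT genes, Zeb2, Cdh2 and Ovol2 were lower, and vimentin (Vim) overlapped, at 68.1, 192 and 298 CPM in WT and 73.4, 132, 74.5 and 85.2 CPM in HER2 mutants. Cdh2 lost its call without any of 5 samples and Ovol2 without any of 6. Zeb2, a repressor of epithelial genes, was at 31.1, 27.1 and 86.7 CPM in WT and 5.73, 9.39, 0.712 and 5.47 CPM in HER2 mutants. Zeb2 did not overlap between the groups, and HER2 2 came nearest to WT (log2 change -3.18 with SE 0.80, edgeR adjusted p = 0.0211). The Zeb2 call was lost without WT 3 (adjusted p up to 0.129), without HER2 1 and 4 together (0.0735) and under 4 of 11 other settings. Of 15 junction genes, 2 were higher. Cldn1, of tight junctions, was at 7.11, 10.1 and 3.67 CPM in WT and 76.3, 10.4, 38.8 and 59.9 CPM in HER2 mutants, with HER2 2 just above WT 2 (log2 change 2.73 with SE 0.60, edgeR adjusted p = 0.0104). The Cldn1 call was lost without WT 3 (adjusted p up to 0.0693), without HER2 1 and 4 together (0.0611) and under 2 of 11 other settings.

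Of 12 tested squamous genes, Sprr1b was higher and Dsc3 lower. Dsc3, a desmosomal cadherin of basal cells, was at 19.4, 20.3 and 8.46 CPM in WT and 0.0189, 0.482, 1.42 and 0.123 CPM in HER2 mutants. In Dsc3 every mutant was below every WT sample, with HER2 1 the lowest (log2 change -4.98 with SE 1.06, edgeR adjusted p = 0.00925). The Dsc3 call was lost with the 7 samples alone and under limma voom. Sprr1b was above 1 CPM in HER2 1 only, at 10.3, 0.0771, 0.467 and 0 CPM in HER2 mutants. The Sprr1b call was lost without WT 1, WT 2, WT 3 or HER2 1 (adjusted p up to 0.334) and without HER2 1 and 4 together (0.152).

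Of 12 tested mucins and sialyltransferases, 5 were higher and none lower. Those 5 became 2 to 5 when 1 sample was left out (2 without WT 1, 2 without WT 3 and 3 without HER2 3), and 1 in the 7-sample fit. St6gal1, which adds sialic acid to N-glycans, was at 20.6, 40.2 and 20.2 CPM in WT and 140.0, 98.4, 131 and 111 CPM in HER2 mutants, with the 4 mutants in a narrow range above WT (log2 change 2.16 with SE 0.23, edgeR adjusted p = 0.000201, and 0.0218 with the 7 samples alone). Muc4, a membrane mucin that can bind HER2, was at 0.979, 3.52 and 0.25 CPM in WT and 37.3, 76.6, 171 and 18.7 CPM in HER2 mutants, highest in HER2 3 and lowest in HER2 4 (log2 change 5.59 with SE 1.18, edgeR adjusted p = 0.0086, and 0.0523 with the 7 samples alone). Muc4 and Muc20, also higher, overlap in the annotation. The Muc20 call was lost without WT 1, WT 3, HER2 2 or HER2 3 (adjusted p up to 0.155). Of 14 tested imprinted genes, Plagl1 alone passed, lower in all mutants (-1.29, edgeR adjusted p = 0.0363). The Plagl1 call was lost without WT 1, WT 2, WT 3 or HER2 1 (adjusted p up to 0.11), without HER2 1 and 4 together (0.0882), with the chromosome medians removed (0.053) and under 6 of 11 other settings. Igf2r, a clearance receptor for IGF2, was at or above the lowest WT sample in HER2 2, 3 and 4 and well below it in HER2 1, at 334, 461 and 344 CPM in WT and 35, 449.8, 637 and 349 CPM in HER2 mutants.

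**Figure D4:**
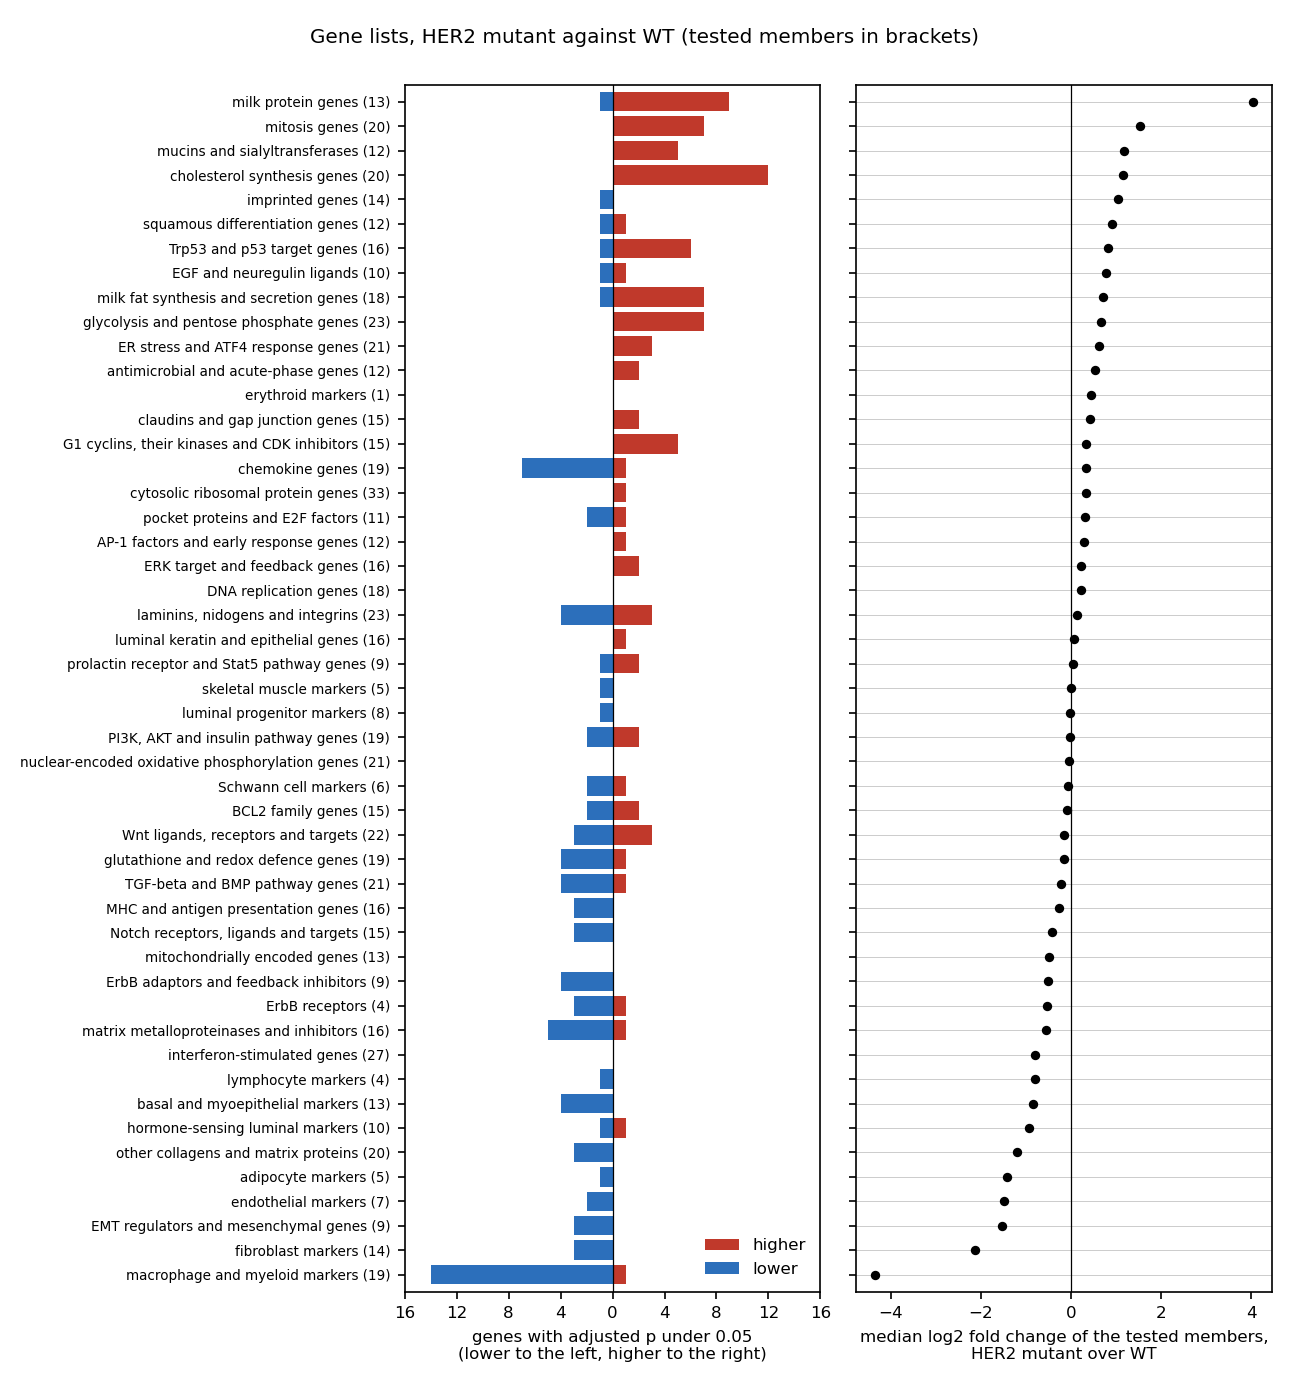
Number of genes called lower (bars to the left) and higher (bars to the right) in HER2 mutants in each of 49 lists, beside the median log2 fold change of the tested members (points), with lists ordered by that median. Milk protein genes lie at the top (4.04) and macrophage markers at the bottom (-4.35).

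**Figure D5:**
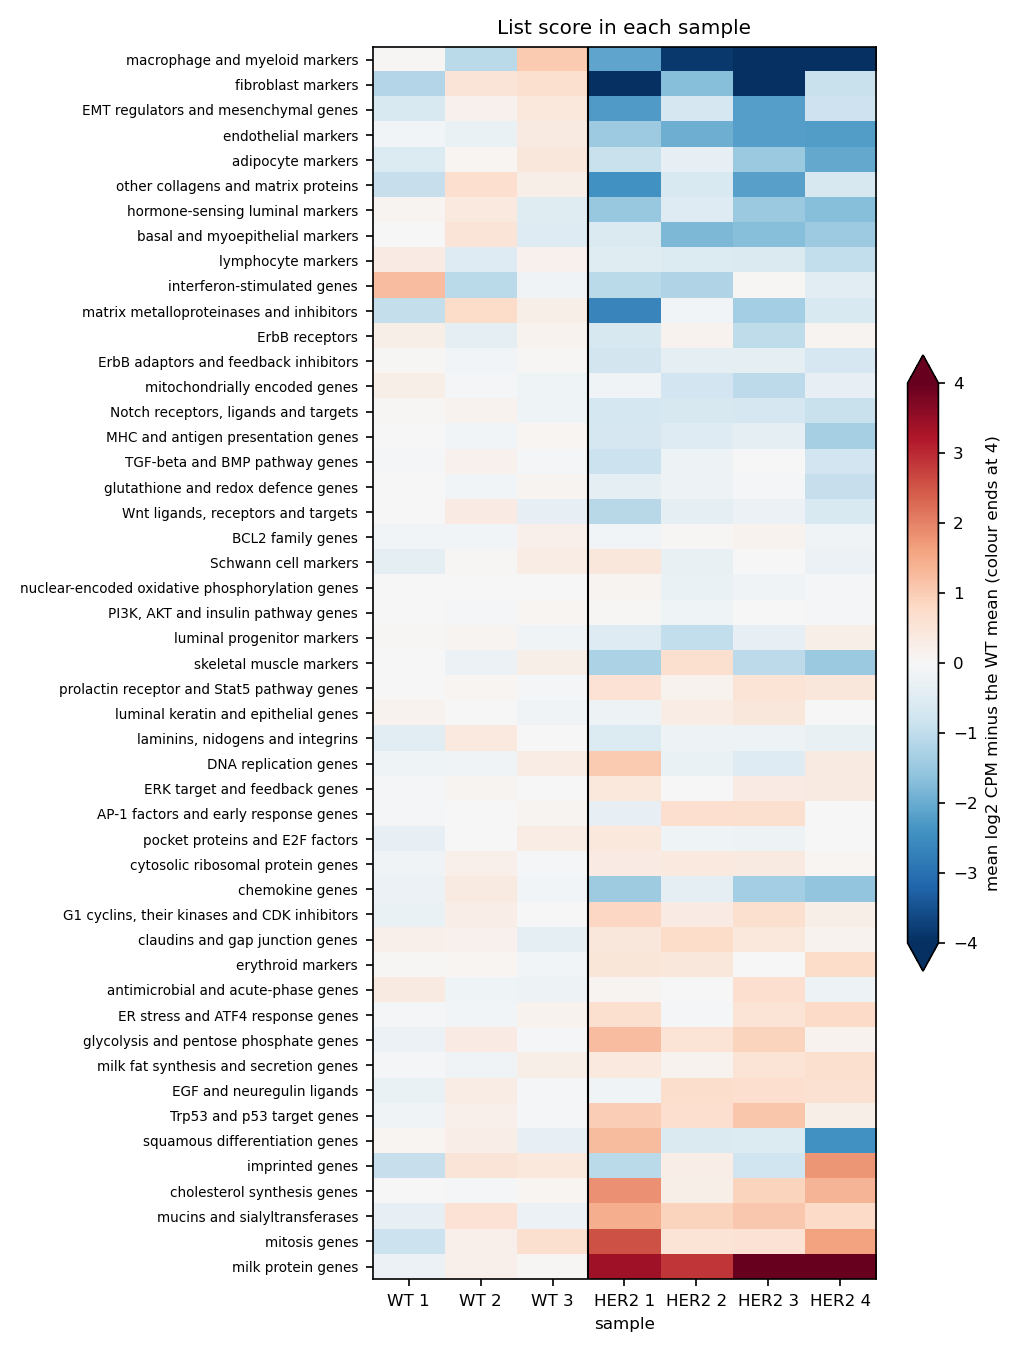
Mean log2 CPM of each list in each sample, minus the WT mean (colour), with the 3 WT and 4 HER2 mutant samples as columns. The milk protein row is high in all 4 HER2 mutants, while the cholesterol and mitosis rows are highest in HER2 1 and, among the mutants, lowest in HER2 2.

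Other genes among the 12 largest increases and decreases belonged to no list. Tnfrsf19, a receptor of the TNF family also known as TROY, was at 0.245, 0.2 and 0.0667 CPM in WT and 44.5, 4.55, 16.7 and 28.2 CPM in HER2 mutants. For Tnfrsf19 all mutants lay above all WT samples, HER2 1 the farthest (log2 change 7.10 with SE 0.85, edgeR adjusted p = 0.000344, and 0.0218 with the 7 samples alone). Plekhs1 was at 0.857, 3.56 and 0.901 CPM in WT and 59.5, 77.8, 158 and 50.1 CPM in HER2 mutants. Plekhs1 stayed outside the WT range in every mutant, with HER2 4 nearest to it (log2 change 5.61 with SE 0.77, edgeR adjusted p = 0.000757). Pglyrp1, a bactericidal peptidoglycan-binding protein, was at 1.24, 3.2 and 1.43 CPM in WT and 161, 19.5, 93.6 and 52.3 CPM in HER2 mutants. Pglyrp1 did not overlap between the groups, and HER2 2 came nearest to WT (log2 change 5.38 with SE 0.72, edgeR adjusted p = 0.000678). Atp7b, a copper-exporting ATPase, was at 0.961, 1.04 and 0.834 CPM in WT and 14.3, 2.47, 44.5 and 24.2 CPM in HER2 mutants, lowest in HER2 2 and highest in HER2 3 (log2 change 4.50 with SE 0.81, edgeR adjusted p = 0.00362). Lipk, of a lipase family, was at 0.822, 1.56 and 1.25 CPM in WT and 2.55, 183, 12.2 and 3.95 CPM in HER2 mutants, with HER2 2 far above the rest. The Lipk call was lost without WT 1, WT 2 or WT 3 (adjusted p up to 0.0867) and under 3 of 11 other settings. Slc25a48, a mitochondrial carrier, was at 0.804, 0.34 and 0.601 CPM in WT and 3.68, 34.6, 59.6 and 1.86 CPM in HER2 mutants, high in HER2 2 and 3. The Slc25a48 call was lost without WT 2 or WT 3 (adjusted p up to 0.0707) and under 1 of 11 other settings.

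Among the decreases, Svep1, a large cell-adhesion protein of the matrix, was at 7.18, 48.2 and 59.9 CPM in WT and 0.189, 0.463, 0.267 and 0.389 CPM in HER2 mutants. In Svep1 every mutant was below every WT sample, with HER2 1 the lowest (log2 change -6.87 with SE 0.78, edgeR adjusted p = 0.000218). Apod, apolipoprotein D, was at 1561, 1329.8 and 1735 CPM in WT and 1.7, 1.43, 3.05 and 50.5 CPM in HER2 mutants, with HER2 4 above the other mutants and far under WT (log2 change -6.77 with SE 1.45, edgeR adjusted p = 0.0093). Svep1 passed with the 7 samples alone and Apod did not (0.0143 and 0.0558). The Svep1 call was lost under limma voom (limma voom adjusted p = 0.0549). Slc5a7, a choline transporter, was at 54.7, 14.3 and 23.7 CPM in WT and 0.641, 0.366, 0.223 and 1.13 CPM in HER2 mutants. For Slc5a7 all mutants lay below all WT samples, HER2 3 the farthest (log2 change -5.70 with SE 0.96, edgeR adjusted p = 0.00245). Hmcn1, the matrix protein hemicentin-1, was at 29.4, 77.5 and 25 CPM in WT and 0.132, 0.752, 2.47 and 2.09 CPM in HER2 mutants. Hmcn1 stayed outside the WT range in every mutant, with HER2 3 nearest to it (log2 change -5.02 with SE 0.89, edgeR adjusted p = 0.00319). Both passed with the 7 samples alone (0.0172 and 0.0396).

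HER2 mutants were also set against the PIK3CA and double mutants, which, like them, came from breast tumor. These comparisons share the 4 HER2 mutant samples with the one above, so their results are not independent of it. Against PIK3CA mutants, 1069 of 24252 genes passed (4.41%), 536 higher (2.21%) and 533 lower (2.2%) in HER2 mutants. Against double mutants, 606 passed (2.5%), 357 higher (1.47%) and 249 lower (1.03%). Leaving out any 1 PIK3CA mutant sample gave 427 to 543 genes against PIK3CA mutants. Against double mutants, 294, 256 and 264 genes passed without double mutant 1, 4 or 5, and 975 without HER2 3. In fits of only the 2 genotypes compared, 534 and 37 genes passed. The larger counts take their estimate of spread from all 4 genotypes. Under upper-quartile scaling, 655 genes were higher and 442 lower against PIK3CA mutants, and 441 higher and 191 lower against double mutants.

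Csn2, Btn1a1 and Cish were higher in HER2 mutants than in either tumor group. Erbb2 was at 149, 165, 188 and 171 CPM in PIK3CA mutants (log2 difference 4.42, SE 0.25, edgeR adjusted p = 2.39e-07) and 1499, 2751, 2705, 1553 and 1649 CPM in double mutants (log2 difference 0.83, SE 0.21, edgeR adjusted p = 0.0483). Both genotypes with the HER2 mutation were thus far above WT and PIK3CA mutants in Erbb2. Csn2 was at 0.143, 0.124, 0.421 and 0.232 CPM in PIK3CA mutants (log2 difference 15.27, SE 1.42, edgeR adjusted p = 7.35e-05) and 12.8, 12.1, 0.883, 7.57 and 1.87 CPM in double mutants (log2 difference 10.31, SE 1.07, edgeR adjusted p = 0.000558). All HER2 mutants were above all samples of both. Btn1a1 was at 2.34, 1.28, 1.59 and 1.38 CPM in PIK3CA mutants (log2 difference 7.02, SE 0.78, edgeR adjusted p = 0.000465) and 21.3, 3.34, 2.65, 7.46 and 7.21 CPM in double mutants (log2 difference 4.68, SE 0.63, edgeR adjusted p = 0.00198). Cish was at 7.12, 7.27, 9.01 and 9.52 CPM in PIK3CA mutants (log2 difference 1.98, SE 0.25, edgeR adjusted p = 0.000848) and 6.08, 12.6, 12.7, 7.63 and 8.17 CPM in double mutants (log2 difference 1.78, SE 0.23, edgeR adjusted p = 0.0014). Of the 13 milk protein genes, 5 were higher and none lower against PIK3CA mutants, and 3 were higher and 1 lower against double mutants. Atp7b was at 0.636, 0.971, 0.576 and 2.04 CPM in PIK3CA mutants (log2 difference 4.33, SE 0.71, edgeR adjusted p = 0.00416) and 1.17, 0.315, 0.53, 0.314 and 0.467 CPM in double mutants (log2 difference 5.24, SE 0.68, edgeR adjusted p = 0.0014).

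Several decreases were also seen against both tumor groups. Rb1 was at 368, 297, 430.1 and 354 CPM in PIK3CA mutants (log2 difference -1.29, SE 0.22, edgeR adjusted p = 0.00586) and 277, 297, 391, 403 and 338 CPM in double mutants (log2 difference -1.20, SE 0.22, edgeR adjusted p = 0.00961). Each PIK3CA and double mutant sample lay between the highest HER2 mutant and the lowest WT sample. Krt5 was at 412, 399, 99.6 and 274 CPM in PIK3CA mutants (log2 difference -3.12, SE 0.55, edgeR adjusted p = 0.00673) and 171, 69, 245, 346 and 303 CPM in double mutants (log2 difference -2.73, SE 0.53, edgeR adjusted p = 0.0152). Hey2 was at 15.7, 8.99, 6.95 and 7.98 CPM in PIK3CA mutants (log2 difference -4.58, SE 0.61, edgeR adjusted p = 0.00109) and 14.8, 2.2, 4.77, 4.36 and 6.01 CPM in double mutants (log2 difference -3.96, SE 0.59, edgeR adjusted p = 0.00379). Nqo1 was at 125, 99.3, 137 and 119 CPM in PIK3CA mutants (log2 difference -1.89, SE 0.36, edgeR adjusted p = 0.00993) and 241, 181, 165, 179.6 and 163 CPM in double mutants (log2 difference -2.52, SE 0.36, edgeR adjusted p = 0.00306). For Krt5, Hey2 and Nqo1 too, every HER2 mutant was below every sample of the other genotypes.

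Other genes that differed from WT did not separate HER2 mutants from the tumor groups, or did so in the other direction. Ccnd1 was at 344, 286, 176 and 265 CPM in PIK3CA mutants (log2 difference -0.07, SE 0.36, edgeR adjusted p = 0.947) and 477, 297, 332, 504 and 545 CPM in double mutants (log2 difference -0.76, SE 0.35, edgeR adjusted p = 0.272), and neither difference passed. Cdkn1a was at 73.7, 85.1, 65.7 and 157 CPM in PIK3CA mutants (log2 difference 0.65, SE 0.48, edgeR adjusted p = 0.505) and 148, 331, 324, 158 and 167 CPM in double mutants (log2 difference -0.59, SE 0.46, edgeR adjusted p = 0.561), and neither passed. Comp was at 0.461, 0.475, 2.37 and 1 CPM in PIK3CA mutants (log2 difference 0.82, SE 0.63, edgeR adjusted p = 0.526) and 0.833, 0.566, 1.47, 2.66 and 4.01 CPM in double mutants (log2 difference -0.01, SE 0.59, edgeR adjusted p = 0.995), and the 3 mutant groups overlapped. Cd163 was higher in the other tumor organoids than in HER2 mutants, at 65.2, 51.8, 60.1 and 47.8 CPM in PIK3CA mutants (log2 difference -1.30, SE 0.20, edgeR adjusted p = 0.00288) and 49.6, 46.9, 48.5, 61.1 and 54.7 CPM in double mutants (log2 difference -1.19, SE 0.19, edgeR adjusted p = 0.00647). Cholesterol synthesis genes had 1 higher against PIK3CA mutants and 0 against double mutants, with none lower (median log2 differences 0.51 and -0.27). Mitosis genes had 0 and 0 higher and none lower (0.45 and 0.17). Glycolysis and pentose phosphate genes had 0 and 0 higher and 1 lower in each (-0.22 and -0.17). Milk fat genes, by contrast, had 6 and 4 higher and none lower. The macrophage list had a median log2 difference of 2.99 against PIK3CA mutants, with none of its 19 genes higher and 1 lower, and of 5.19 against double mutants, with 12 higher and 1 lower. Mpeg1 was at 0.572, 0.62, 2.39 and 0.804 CPM in PIK3CA mutants and 0.461, 1.05, 0.294, 0.61 and 0.564 CPM in double mutants. HER2 1 and 2 were above all of these samples, and HER2 3 and 4 lay within their range.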

How the data were processed

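RNA was sequenced from 16 organoid samples, and the 3 WT and 4 HER2 mutant samples form the main comparison. The authors deposited raw read counts per Ensembl gene, which per the submitters' processing notes came from STAR 2.0.4b and featureCounts 1.4.5 on mm10, after bcl2fastq 2.20. The labels name RNeasy extraction and a SMARTer mRNA-seq kit. Whether counting used strand is not given in the sources used here, so genes that overlap another coding gene, 27 of the 160 named, are uncertain. Of 55774 entries, 287 repeats of an identifier were dropped.

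Genes passing edgeR's expression filter (24252) were fitted with edgeR 4.0.16 in R 4.3.3, using TMM scaling, the quasi-likelihood test with all 16 samples and 4 genotypes, and Benjamini-Hochberg adjustment over all tested genes at 0.05. CPM used TMM library sizes, and log2 values a prior count of 2. Named genes were, among called genes with a mean log2 CPM of at least 1 and groups that did not overlap, the 12 with the largest log2 fold change in each direction and in each of 49 lists the 2 largest in each direction. Added to these were the uncalled member of each list with the highest mean CPM and a fixed set of key genes (Erbb2, Cdkn1a, Ccnd1, Rb1 and others). Lists with 5 or fewer calls could be named in full. Hey2, Csn1s1, Glycam1, Wap, Ptprc and Grb7 were chosen after their values had been seen. Some genes that count in the totals are not reported here. The members and lists were chosen with earlier results of these data known. Chromosome medians used genes with a mean log2 CPM of at least 2. The fit was tested on simulated data with known changes. That simulation gave all genotypes the same spread for each gene, so it cannot show how the fit handles the wider spread of HER2 mutants. Alternatives used limma 3.58.1 (voom), DESeq2 1.42.0, upper-quartile scaling, no filter, a replicate block, an offset for GC and length, and samples left out. Replicate numbers are taken from the labels, which do not say that they pair samples. Gene positions and overlaps are from GENCODE M21 (GRCm38), which matched 55141 identifiers, and promoter sequences from RefSeq.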

Additional observations from a re-analysis of the deposited data

Results flagged for a closer look

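Among 111 values checked in the 4 HER2 mutant samples for 1 sample apart from the rest, 4 had such a sample, and chance gives about 1 in 20. Ccnd1 was at a log2 CPM of 9.0 in HER2 1, against 7.34 to 7.52 in the other HER2 mutants. The chromosome 1 median log2 difference from WT was 0.28 in HER2 1, against -0.02 to 0.02 in the others. The mean log2 CPM of the EGF and neuregulin ligands was 1.99 in HER2 1, against 2.74 to 2.81. That of the Notch receptors, ligands and targets was 3.72 in HER2 4, against 3.93 to 3.97.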

How the results depend on the processing

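Of 105 named genes called between HER2 mutant and WT organoids, 61 kept the call in every fit that left out 1 sample, 38 in every other setting, and 40 with the 7 samples alone. None of these 105 changed direction under any setting run, which their choice by groups that did not overlap made unlikely beforehand. For the 55 named genes that did not pass, direction was compared only in settings that called them. The count of 2518 became 541 with only the 2 genotypes, and 733 to 2693 when 1 sample was left out, lowest without WT 3. Against PIK3CA mutants, 1069 became 2127 with DESeq2, 534 with only the 2 genotypes, and 427 to 1166 when 1 sample was left out, lowest without PIK3CA mutant 2. Against double mutants, 606 became 1652 with DESeq2, 51 with limma voom weighted per genotype, 37 with only the 2 genotypes, and 256 to 975 when 1 sample was left out, lowest without double mutant 4. The cause of these shifts was not tested. With the replicate number as a block, the 3 counts were 1625, 552 and 118, and with a GC and length offset as well the replicate block gave 1925, 578 and 117. Same-numbered samples did not deviate together, with r of -0.004, 0.011 and -0.163 between WT and HER2 mutants and -0.118 to 0.092 between PIK3CA and HER2 mutants, where 1 of 4 samples correlated best with its own number. Between double and HER2 mutants every r was positive, at 0.071 to 0.273, and samples 1 and 3 correlated best with their own number. The labels do not tie these numbers to a shared source. Other settings kept each count within 1.5 times: against WT, DESeq2 called 3619 genes, voom 2110, no filter 2076, the fit without HER2 1 and 4 2477, and removal of chromosome medians 2432. The higher share of calls moved from 45.8% to 62.4% against WT with the GC and length offset. Upper-quartile scaling moved it from 50.1% to 59.7% against PIK3CA mutants and from 58.9% to 69.8% against double mutants. Depth limits values under about 0.05 CPM, where fewer than 3 reads were counted.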
